A study of Mus musculus with 12 samples.

Results

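The genes followed here are 5 that are widely used to recognise pericytes, namely Rgs5, Kcnj8, Abcc9, Pdgfrb and Cspg4. They were taken by symbol from the platform annotation of an Affymetrix array, where 12 of 45101 probe sets (groups of short probes for one transcript) name one of them alone. Each gene is given by its brightest set over the 12 arrays, with its other sets beside it, so that the 5 genes stand among 18194 genes measured. RNA came from ventricles of mouse embryos at 14.5 days post coitum. The left ventricle (LV) and the right ventricle (RV) came from wild-type embryos of strain CD1 (WT) and from Nos3-/- embryos of strain B6.129P2-Nos3tm1unc/J (KO), which carry a targeted allele of the endothelial nitric oxide synthase gene on both chromosomes. Each of the 4 groups has 3 arrays, and each array carries a pool of 15 to 30 embryos, and p-values therefore describe variation among pools, not embryos. Allele and strain change together in every genotype comparison and cannot be told apart. The question is how these genes differ by genotype within each ventricle.

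Pericytes are contractile support cells that lie on the outside of capillaries within the vessel's basement membrane, and together with vascular smooth muscle they make up the mural cells. In the embryonic heart many of them come from the epicardium and settle on the growing coronary plexus, where endothelial platelet-derived growth factor B (PDGF-B) calls in cells that carry the receptor Pdgfrb. None of the 5 genes belongs to pericytes alone: Pdgfrb and Cspg4 are also read in fibroblasts, smooth muscle and other progenitors, and Abcc9 also in cardiac muscle. In whole ventricle, fewer cells of a type and less RNA per cell cannot be told apart.

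The 5 genes did not move as one. In LV the signalling regulator gene Rgs5 and the channel pore gene Kcnj8 were lower in KO. The surface protein genes Cspg4 and, near the threshold, Pdgfrb were higher. In RV only Kcnj8 passed the test, and it was lower in KO. Abcc9, which codes for the partner subunit of the Kcnj8 channel, passed in neither ventricle. Values are log2 expression, so a difference of 1 is a doubling, and a gene is called where limma's adjusted p over all genes is under 0.05 (two-sided).

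The array set as a whole has a feature that touches these results. Arrays correlated between 0.983 and 0.998, and the first principal component held 50.7% of the variance. The poly-A controls, bacterial transcripts added before labelling and read by 24 probe sets, averaged 8.89 to 8.96 on 4 arrays and 7.35 to 8.47 on the other 8. The 4 high arrays were all 3 WT LV arrays and WT RV replicate 3, which on the first component also lay with the WT LV arrays and apart from the other WT RV arrays. Its label was taken as given and was not tested, so the RV differences are given with and without it. The mean of 4 nuclear transcripts was highest on WT LV replicate 2 (11.26) and lowest on KO LV replicate 3 (8.64), against 9.83 to 10.91 on the other arrays. Without that pair, which leaves fewer arrays in both LV groups, 2738 genes were called in LV instead of 5617. Leaving out 1 array also lowered the count, to 4320 without WT LV replicate 2 and 4064 without KO LV replicate 3. It was 4081 without KO LV replicate 2, which was no extreme of this mean. The part of nuclear RNA in these counts was not tested. Nos3, the targeted gene, was lower in KO by 0.41 in LV (SE 0.14, limma adjusted p = 0.0376) and by 0.66 in RV (SE 0.14, limma adjusted p = 0.00983). On the KO arrays Nos3 still read 7.77 to 8.23, above the median of 5.67 of all values. Where its probes lie relative to the targeted exons was not examined.

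The stretches around the starts of 4 of the genes are shown. Kcnj8 and Abcc9 are next to each other on chromosome 6 and code for the pore and the regulatory subunit of one channel. Kcnj8 was called and the set used for Abcc9 was not, though a dimmer Abcc9 set fell in LV. In LV Rgs5 was called lower and Cspg4 higher. No test compared the response of one gene with that of another. Each runs from 250 bases before to 50 after the gene's start, on the strand of the gene, in RefSeq's table of GRCm38.p6. They lie at chr1:169655251-169655550 (plus strand) for Rgs5, chr6:142571565-142571864 (minus strand) for Kcnj8, chr6:142702225-142702524 (minus strand) for Abcc9 and chr9:56864854-56865153 (plus strand) for Cspg4. Capitals mark matches, on either strand, to 5 motifs: the RBPJ core TGGGAA of Notch signalling, the CArG box of serum response factor, the GC box GGGCGG, the CACC box CCACCC and the TATA box TATAAA.
Rgs5: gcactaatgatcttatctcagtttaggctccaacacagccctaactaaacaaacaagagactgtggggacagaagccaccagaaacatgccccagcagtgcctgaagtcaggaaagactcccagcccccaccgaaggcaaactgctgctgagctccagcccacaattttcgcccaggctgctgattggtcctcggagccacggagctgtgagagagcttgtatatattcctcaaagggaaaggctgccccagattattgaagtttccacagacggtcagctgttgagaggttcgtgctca
Kcnj8: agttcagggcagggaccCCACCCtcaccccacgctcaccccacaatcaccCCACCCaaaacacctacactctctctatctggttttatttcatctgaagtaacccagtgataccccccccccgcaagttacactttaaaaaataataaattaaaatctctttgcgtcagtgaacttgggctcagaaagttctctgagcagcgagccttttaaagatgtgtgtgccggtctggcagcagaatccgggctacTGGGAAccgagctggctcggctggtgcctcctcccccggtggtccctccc
Abcc9: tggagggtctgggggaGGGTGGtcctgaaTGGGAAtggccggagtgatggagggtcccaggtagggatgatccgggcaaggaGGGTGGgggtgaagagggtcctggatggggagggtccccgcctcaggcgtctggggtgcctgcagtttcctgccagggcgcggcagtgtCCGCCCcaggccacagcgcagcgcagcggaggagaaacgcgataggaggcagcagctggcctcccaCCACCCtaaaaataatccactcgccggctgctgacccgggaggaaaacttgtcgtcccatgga
Cspg4: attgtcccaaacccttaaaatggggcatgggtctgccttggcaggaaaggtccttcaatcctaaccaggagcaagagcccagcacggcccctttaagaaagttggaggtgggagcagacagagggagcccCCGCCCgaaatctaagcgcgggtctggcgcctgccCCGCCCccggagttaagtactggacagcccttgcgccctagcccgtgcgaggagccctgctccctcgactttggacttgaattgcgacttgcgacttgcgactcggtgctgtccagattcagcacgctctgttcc
The Rgs5 window held no match to any of the 5 motifs. The Kcnj8 window held 1 RBPJ core, which begins at the gene's first base, and 2 CACC boxes. The Abcc9 window held 1 RBPJ core, 1 GC box and 3 CACC boxes. The Cspg4 window held 2 GC boxes and no other match, and no matches overlapped each other. Over 32851 windows of this length the RBPJ core was found in 25.6%, the GC box in 35.7%, the CACC box in 31.5%, the TATA box in 13.6% and the CArG box in 1.63%. The windows of Kcnj8 and Abcc9 thus share the RBPJ core and the CACC box, both of which are common. A match is a run of letters and says nothing of binding.

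Rgs5 codes for a regulator of G protein signalling that speeds the shut-off of signals from contractile receptors, and it is among the most used pericyte transcripts. In WT LV it read 9.00, 8.67 and 9.99 in replicates 1 to 3, and in KO LV 7.77, 7.78 and 7.74. In WT RV it read 9.01, 8.76 and 9.60, and in KO RV 7.84, 8.30 and 8.49. In each ventricle every WT array lay above every KO array, and replicate 3 was the highest of its group in WT LV, WT RV and KO RV. The KO LV arrays were close together (mean 7.76 ± 0.02, SD, n = 3), whereas the WT LV arrays were spread (9.22 ± 0.69, SD, n = 3).

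Rgs5 fell by 1.46 in KO LV (SE 0.28, 95% interval -2.06 to -0.85), which is 2.74-fold lower (limma adjusted p = 0.00197). Without WT LV replicate 3, its brightest array, the difference was -1.07 and still passed (limma adjusted p = 0.00427). In RV the difference was -0.91 (SE 0.28, 95% interval -1.52 to -0.31) and did not pass (limma adjusted p = 0.0625). With the replicate number as a fixed block, the RV difference did pass (limma adjusted p = 0.0176). With the number as a random block within genotype it did not. The labels give no pairing, and the block rests on these same values. In them, same-numbered arrays deviated together between genotypes in RV but not throughout in LV. The same RV difference passed without WT LV replicate 2 (limma adjusted p = 0.0426) or without WT LV replicate 3 (limma adjusted p = 0.0134). These arrays enter only through the shared estimate of spread. Without WT RV replicate 3 it was -0.68 (limma adjusted p = 0.216).

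Rgs5 has 3 other probe sets. The set 1420941_at read 7.96, 7.34 and 8.54 in WT LV and 6.04, 6.06 and 6.38 in KO LV, then 8.26, 7.90 and 8.20 in WT RV and 6.07, 6.52 and 6.54 in KO RV. Its groups were apart in both ventricles, and its difference was -1.79 in LV (SE 0.24, limma adjusted p over all probe sets = 0.000525) and -1.74 in RV (SE 0.24, limma adjusted p = 0.0014). The dimmer set 1420942_s_at fell by 1.14 in LV (limma adjusted p = 0.00439), and its RV difference of -0.74 did not pass (limma adjusted p = 0.0849). The set 1420940_x_at, a kind whose probes may also match other transcripts, differed by -0.59 in LV and -0.43 in RV and passed in neither (limma adjusted p = 0.132 and 0.379). All 4 sets thus read lower in KO in both ventricles, with differences from -1.79 to -0.43.

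Kcnj8 codes for the pore subunit of the ATP-sensitive potassium channel of vessels, which opens when the cell's energy falls and relaxes the mural cell. It has 1 probe set. WT LV arrays read 9.33, 9.15 and 9.65 and KO LV arrays 8.26, 8.18 and 8.30. WT RV arrays read 8.81, 8.67 and 9.33 and KO RV arrays 7.90, 8.26 and 8.29. Every KO array was below every WT array, across both ventricles.

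Kcnj8 fell by 1.13 in KO LV (SE 0.17, 95% interval -1.49 to -0.77), a level 2.19-fold lower (limma adjusted p = 0.000361). It fell by 0.79 in KO RV (SE 0.17, 95% interval -1.14 to -0.43), a level 1.73-fold lower (limma adjusted p = 0.0111). The RV call was lost without KO RV replicate 1, the lowest array (-0.66, limma adjusted p = 0.0565), and with the poly-A control level as a term (-0.53, limma adjusted p = 0.0525). Without WT RV replicate 3, which leaves no high-control array in the RV groups, the RV difference was -0.59 and passed (limma adjusted p = 0.0366).

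Abcc9 codes for the sulphonylurea receptor subunit that surrounds the Kcnj8 pore in vessels and the Kcnj11 pore in cardiac muscle. WT LV arrays read 10.53, 10.09 and 10.26 and KO LV arrays 10.36, 10.44 and 10.32. WT RV arrays read 11.13, 10.92 and 10.18 and KO RV arrays 10.72, 10.83 and 10.79. The genotypes overlapped in both ventricles, and WT RV replicate 3 read with the LV arrays. The difference was 0.08 in LV (SE 0.19, 95% interval -0.32 to 0.48, limma adjusted p = 0.783) and 0.04 in RV (95% interval -0.36 to 0.44, limma adjusted p = 0.923). Without WT RV replicate 3 the RV difference was -0.25 (limma adjusted p = 0.27). For this set, in the fit as reported, both intervals leave out a fall of the size seen in Kcnj8. With a term for high and low poly-A control arrays, given below, the LV difference of Abcc9 was -0.77, against -0.54 for Kcnj8.

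The probe sets of Abcc9 disagreed with each other. The set 1435751_at, like the set used, showed no called difference (0.04 in LV, limma adjusted p = 0.899, and 0.16 in RV, limma adjusted p = 0.626). The dimmest set, 1420408_a_at, read 7.27, 6.89 and 7.15 in WT LV against 6.29, 6.48 and 6.53 in KO LV, and 7.58, 7.47 and 7.17 in WT RV against 6.89, 6.96 and 6.97 in KO RV. Its KO arrays lay below the WT arrays in each ventricle. It fell by 0.67 in LV (SE 0.12, limma adjusted p = 0.00313), and its RV difference of -0.47 did not pass (limma adjusted p = 0.0518). Which transcripts of Abcc9 each set reads was not examined.

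Pdgfrb codes for the receptor tyrosine kinase through which PDGF-B recruits mural cells. WT LV arrays read 9.68, 9.46 and 9.85 and KO LV arrays 9.90, 10.15 and 10.34. WT RV arrays read 9.97, 10.18 and 9.54 and KO RV arrays 9.62, 9.90 and 9.94. The LV groups were apart by a narrow margin, since the highest WT array and the lowest KO array differed by less than the spread within either group, and the RV groups overlapped.

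Pdgfrb rose by 0.47 in KO LV (SE 0.16, 95% interval 0.12 to 0.82), a level 1.38-fold higher (limma adjusted p = 0.0434). The RV difference was -0.08 (95% interval -0.43 to 0.27, limma adjusted p = 0.8), and without WT RV replicate 3 it was -0.26 (limma adjusted p = 0.369). The LV call is near the threshold: it was lost when p-values were adjusted over all probe sets (limma adjusted p = 0.0651) and held in 12 of 25 other settings. Leaving out an array ended it for WT LV replicate 1 or 2, WT RV replicate 1, KO LV replicate 2 or 3 and KO RV replicate 2 or 3, with differences of 0.36 to 0.48. The second set, 1417148_at, differed by 0.02 in LV (limma adjusted p = 0.939) and -0.29 in RV (limma adjusted p = 0.274).

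Cspg4 codes for the NG2 proteoglycan of the mural cell surface, which is also a classic mark of oligodendrocyte and cartilage progenitors. WT LV arrays read 7.91, 7.65 and 7.84 and KO LV arrays 8.45, 8.66 and 8.57. WT RV arrays read 8.45, 8.37 and 7.79 and KO RV arrays 8.45, 8.49 and 8.45. The LV groups were clearly apart, whereas in RV replicate 1 and 2 of WT lay beside the KO arrays and WT RV replicate 3 was low.

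Cspg4 rose by 0.76 in KO LV (SE 0.14, 95% interval 0.45 to 1.07), a level 1.69-fold higher (limma adjusted p = 0.00162). The RV difference was 0.26 (SE 0.14, 95% interval -0.05 to 0.57, limma adjusted p = 0.267), and without WT RV replicate 3 it was 0.05 (limma adjusted p = 0.806). The second set, 1450944_at, read 7.37, 7.13 and 7.37 in WT LV and 7.51, 7.60 and 7.59 in KO LV. These groups did not overlap, but the difference of 0.28 did not pass (limma adjusted p = 0.111). The oligodendrocyte genes Olig1 and Olig2 read at most 3.93 and 3.19 in any group mean, below the median of 5.67 of all values, and neither was called in either ventricle. Of the 5 genes listed for oligodendrocytes and cartilage, 0 were called in LV and 1 in RV, where the cartilage collagen Col2a1 rose by 0.52 (limma adjusted p = 0.0151). Over all genes 30.9% were called in LV and 8.19% in RV. That RV count was 0 without WT RV replicate 3, KO RV replicate 1 or KO RV replicate 2.

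**Figure D1:**
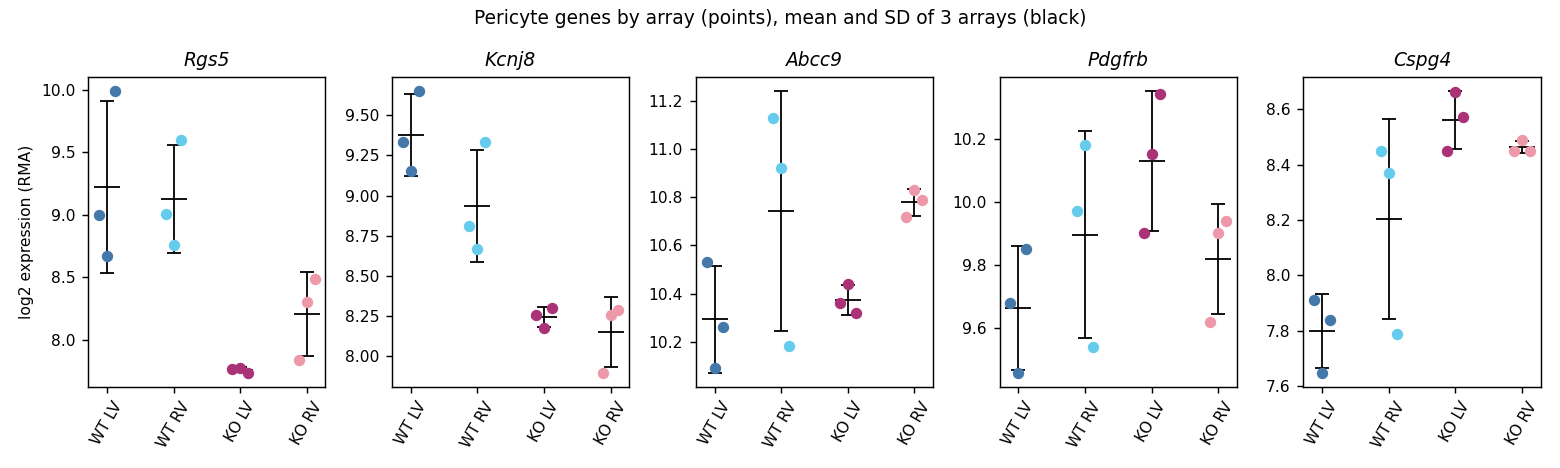
Log2 expression (RMA) of the 5 pericyte genes on each array, with WT in blue and KO in red shades, LV dark and RV light, replicates 1 to 3 from left to right within a group, and the mean and SD of 3 arrays in black. The vertical axes differ between panels and do not start at 0. Kcnj8 is lower on every KO array than on every WT array, Cspg4 is higher on every KO LV array than on every WT LV array, and WT RV replicate 3 lies with the WT LV arrays for Abcc9 and Cspg4.

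By count, 4 of the 5 genes were called in LV, 2 higher and 2 lower, in a comparison where 30.9% of all genes were called (18.6% higher and 12.3% lower). In RV 1 of the 5 was called, lower, where 8.19% of all genes were called (4.61% higher and 3.58% lower). The groups did not overlap for 4 of the 5 genes in LV and 2 of the 5 in RV, against 44.4% and 29.4% of all genes. The median difference of the 5 was 0.08 in LV and -0.08 in RV, beside -0.01 and -0.04 over all genes. Of the 12 probe sets, 6 were called in LV, 5 of them lower, where 23.3% of all probe sets were called and 10.5% were lower. In RV 2 of the 12 were called, both lower, against 4.89% and 2.01% of all probe sets.

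**Figure D2:**
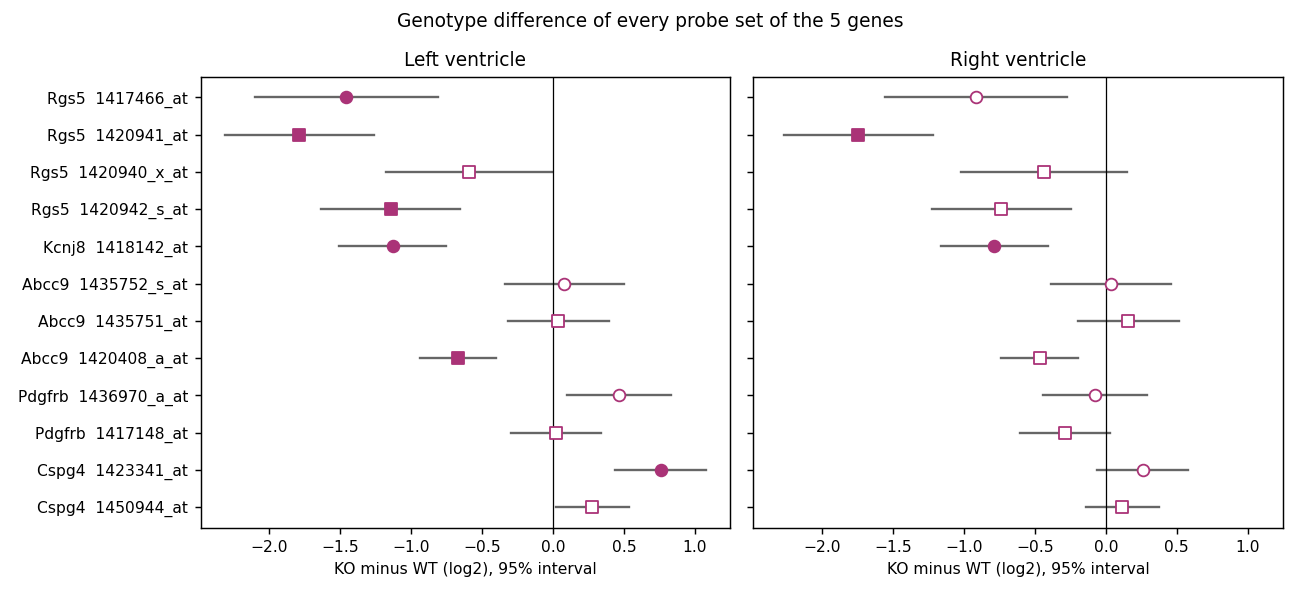
Difference between KO and WT (log2) with its 95% interval for each of the 12 probe sets of the 5 genes, in LV and in RV. Circles are the set used for a gene and squares its other sets, and filled marks have a limma adjusted p under 0.05 over all 45101 probe sets. All 4 Rgs5 sets lie left of 0 in both ventricles, and the Abcc9 set 1420408_a_at lies apart from the other Abcc9 sets.

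The LV comparison cannot be separated from the control level, since all WT LV arrays had high poly-A controls and all KO LV arrays lower ones. A term for high against low control arrays, added after the data were seen, rests on WT RV replicate 3 alone. With it, 0 of the 5 genes were called in LV: Rgs5 was at -0.74 (limma adjusted p = 0.57), Kcnj8 at -0.54 (limma adjusted p = 0.349), Pdgfrb at -0.07 (limma adjusted p = 0.942) and Cspg4 at 0.14 (limma adjusted p = 0.785). Abcc9 was at -0.77 and was not called either. Over all genes, 1.08% were then called in LV. In the other 24 settings the LV calls of Rgs5 (-1.73 to -1.01), Kcnj8 (-1.27 to -0.80) and Cspg4 (0.52 to 0.85) held.

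**Figure D3:**
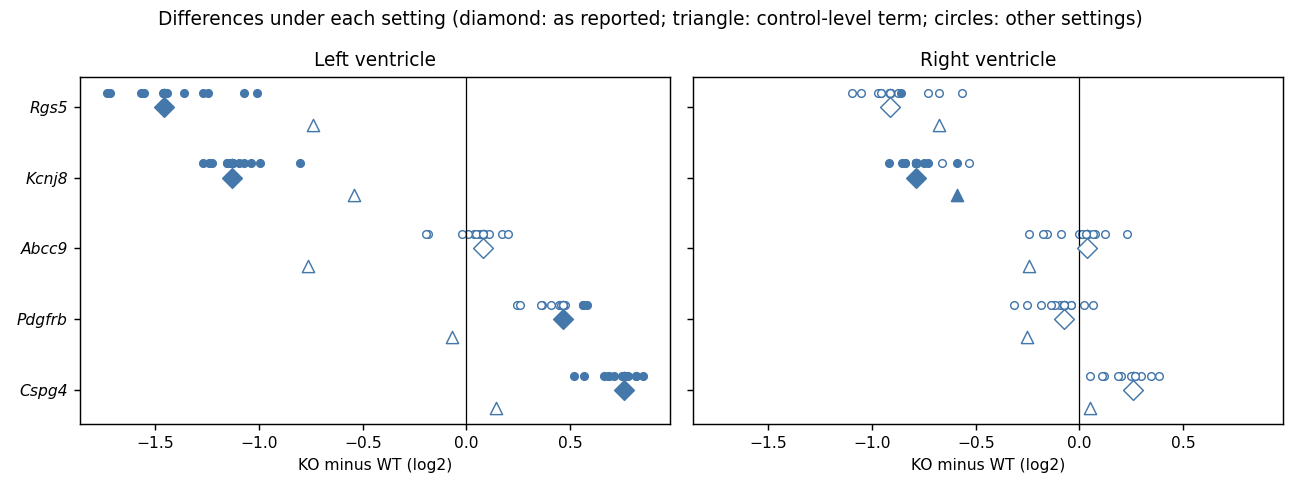
Difference between KO and WT (log2) of each gene in LV and RV as reported (diamond), with a term for high and low poly-A control arrays (triangle) and under the other settings (circles). Filled marks have an adjusted p under 0.05. In LV the triangles lie apart from the circles for all 5 genes, at -0.74 for Rgs5, -0.54 for Kcnj8 and -0.77 for Abcc9.

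The difference between the ventricles in their response to genotype was tested directly. None of the 5 genes passed, with 0.022% of all genes called. The lowest adjusted p-values among the 5 were those of Cspg4 (RV minus LV response -0.50, SE 0.20, limma adjusted p = 0.318) and Pdgfrb (-0.54, SE 0.23, limma adjusted p = 0.335). For Rgs5 the difference of responses was 0.54 (95% interval -0.31 to 1.40) and for Kcnj8 0.34 (95% interval -0.16 to 0.85). Thus the LV calls of Rgs5, Pdgfrb and Cspg4 beside their uncalled RV values do not show that the ventricles differ. Without WT RV replicate 3, Cspg4 (-0.71, limma adjusted p = 0.0234) and, at the threshold, Pdgfrb (-0.72, limma adjusted p = 0.04995) passed, as did 7.19% of all genes.

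Between the ventricles of one genotype, none of the 5 genes was called in WT (0.984% of all genes called) or in KO (1.14% called). Their WT groups overlapped in all 5, where 15.7% of all genes did not overlap. The 3 genes with the lowest adjusted p in WT also did not pass. WT RV minus WT LV was -0.44 for Kcnj8 (limma adjusted p = 0.205), 0.45 for Abcc9 (limma adjusted p = 0.244) and 0.40 for Cspg4 (limma adjusted p = 0.182). Without WT RV replicate 3 all 3 of these passed, where 9.53% of all genes did. Kcnj8 was then at -0.64 (limma adjusted p = 0.0211), Abcc9 at 0.73 (limma adjusted p = 0.00498) and Cspg4 at 0.61 (limma adjusted p = 0.00465). In KO, Abcc9 and Rgs5 were higher on every RV array than on every LV array (0.41 and 0.45), an arrangement found in 19.7% of all genes in one or the other direction, and neither passed (limma adjusted p = 0.472 and 0.662).

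Set in order of level, the groups ran WT LV, WT RV, KO RV and KO LV for Rgs5, and WT LV, WT RV, KO LV and KO RV for Kcnj8. For Abcc9 the order was KO RV, WT RV, KO LV and WT LV, for Pdgfrb KO LV, WT RV, KO RV and WT LV, and for Cspg4 KO LV, KO RV, WT RV and WT LV. Of the neighbours in these orders, no pair that shares a genotype or a ventricle passed the test, and pairs that differ in both were not tested.

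Of 33 other mural genes listed, 30 were measured and 19 lay above the median of all values. In LV 6 rose and 2 fell, with a median of 0.16, where 18.6% of all genes rose and 12.3% fell. In RV 0 rose and 1 fell, with a median of -0.07, where 4.61% rose and 3.58% fell, so that the counts of the list lie near those of all genes. The transcription factors Foxc1 and Ebf1 rose in LV by 0.99 (SE 0.11, limma adjusted p = 5.27e-05) and 0.57 (SE 0.12, limma adjusted p = 0.00289). Ndufa4l2, a mitochondrial protein gene much used as a pericyte mark, fell by 0.42 (limma adjusted p = 0.0341) and the metalloreductase gene Steap4 by 0.33 (limma adjusted p = 0.0223). The mean level of Steap4, 5.18, lay below the median of all values. In RV the amine oxidase gene Aoc3 fell by 0.98 (limma adjusted p = 0.0105). Notch3, Higd1b and Vtn, picked out after their values were seen, were not called in LV (0.24, -0.57 and -0.57). With the control term 0 of the 30 were called in LV, and without both WT LV replicate 2 and KO LV replicate 3 there were 3 higher and 1 lower. The LV counts were 10 higher and 0 lower without WT LV replicate 3, 5 and 4 without WT LV replicate 1, 6 and 0 without KO LV replicate 2, and 5 and 0 without KO LV replicate 1 or 3. The RV counts were 1 higher and 3 lower without WT LV replicate 3, 1 and 1 without KO LV replicate 3, and 0 without KO RV replicate 1.

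The PDGF genes are the ligands and the sister receptor of Pdgfrb, and 4 of the 5 rose in LV and 1 in RV, where 18.6% and 4.61% of all genes rose. Pdgfb, the ligand that endothelium makes for mural cells, was at 6.41 ± 0.52 (SD, n = 3) in WT LV and 7.16 ± 0.12 in KO LV. It rose by 0.76 (SE 0.19, limma adjusted p = 0.0096), and its RV difference was 0.07 (limma adjusted p = 0.843). Pdgfd, the other ligand of Pdgfrb, rose by 1.19 in LV (SE 0.16, limma adjusted p = 0.00017) and by 1.25 in RV (SE 0.16, limma adjusted p = 0.000267). It went from 6.21 ± 0.23 to 7.39 ± 0.21 in LV and from 5.79 ± 0.13 to 7.04 ± 0.30 in RV (SD, n = 3). The receptor Pdgfra, a mark of fibroblast and cushion mesenchyme, rose by 0.87 in LV (SE 0.18, limma adjusted p = 0.00258) and its ligand Pdgfc by 0.53 (SE 0.13, limma adjusted p = 0.00636). Their RV differences of 0.11 and 0.27 did not pass. Pdgfa, a ligand of Pdgfra, differed by 0.09 and -0.04. Without both WT LV replicate 2 and KO LV replicate 3, 1 of the 5 was called in LV, and with the control term 0 were.

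Other genes of mural recruitment, among them TGF-beta, sphingosine phosphate and endothelin genes, rose in LV in 14 of 22 and fell in 1, with a median of 0.45, where 18.6% of all genes rose. In RV 2 rose and 1 fell, with a median of 0.11, near the 4.61% and 3.58% of all genes. The angiopoietin genes Angpt1 (0.39 in LV) and Angpt2 (-0.06) passed in neither ventricle. The endothelin receptor Ednrb rose by 1.52 in LV (SE 0.14, limma adjusted p = 1.47e-05) and 0.86 in RV (SE 0.14, limma adjusted p = 0.00271). The ligand Tgfb2 rose by 0.90 in LV (limma adjusted p = 0.000304) and the receptor Tgfbr1 by 0.40 in RV (limma adjusted p = 0.0189). The growth factor receptor Egfr fell by 0.28 in LV (limma adjusted p = 0.0371) and by 0.39 in RV (limma adjusted p = 0.0219). With the control term 1 of the 22, Ednrb, was called in LV (0.91, limma adjusted p = 0.0206), and without both WT LV replicate 2 and KO LV replicate 3 there were 9. The RV count was 1, higher, without WT RV replicate 2 or 3 or KO RV replicate 2 or 3.

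Among relatives of the channel subunits, 11 inward rectifier and sulphonylurea receptor genes, 2 rose and 2 fell in LV and 0 rose and 2 fell in RV. Over all genes 18.6% rose and 12.3% fell in LV, and 4.61% and 3.58% in RV, so the LV counts lie near the background. Kcnj11, the pore of the cardiac muscle channel, differed by 0.06 in LV and -0.12 in RV and was not called. Abcc8, the sister of Abcc9, fell by 0.47 in LV (SE 0.10, limma adjusted p = 0.00421) and 0.43 in RV (SE 0.10, limma adjusted p = 0.0214). The acetylcholine-gated channel genes Kcnj3 and Kcnj5 rose in LV by 0.89 (limma adjusted p = 0.015) and 0.32 (limma adjusted p = 0.0402). Kcnj14 fell in LV by 0.50 (limma adjusted p = 0.0213) and Kcnj12 in RV by 0.85 (limma adjusted p = 0.000732). The mean level of Kcnj14, 4.42, lay below the median of all values. Kcnj2, Kcnj4, Kcnj10, Kcnj15 and Kcnj16 were called in neither ventricle, with differences from -0.26 to 0.09, and Kcnj2, Kcnj10, Kcnj15 and Kcnj16 lay below the median of all values. The LV counts were 1 higher and 1 lower without WT LV replicate 1 or 3 and 0 and 1 without KO LV replicate 3, and the RV count was 1 without any of the KO RV arrays. With the control term 0 were called in LV.

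Of 8 measured relatives of Rgs5 in its RGS subfamily, 1 was called, Rgs4, which is also the next gene along chromosome 1. Over all genes 12.3% were lower in LV and 3.58% in RV, so the LV count lies near the background. Rgs4 fell by 0.62 in LV (SE 0.12, limma adjusted p = 0.00201) and by 0.55 in RV (SE 0.12, limma adjusted p = 0.0136), at a mean level of 5.05 that lies below the median of all values. With the control term its LV difference was -0.50 and did not pass (limma adjusted p = 0.34). Without KO LV replicate 3, 1 relative also rose in LV, and without KO RV replicate 3 none was called in RV by limma.

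**Figure D4:**
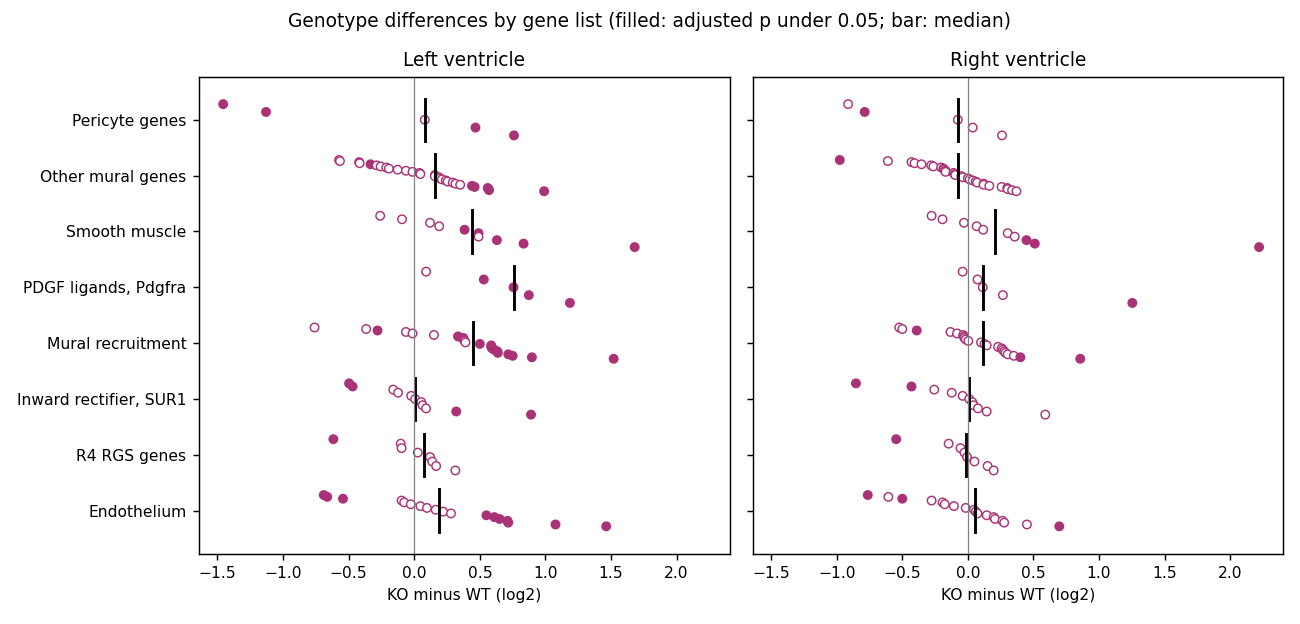
Difference between KO and WT (log2) of the 5 pericyte genes and of the genes of 7 related lists, in LV and in RV, with 1 point a gene, filled where limma's adjusted p over all genes is under 0.05, and a bar at each list's median. Points of a list are spread vertically by rank only. The pericyte genes lie on both sides of 0, and the PDGF genes have the highest median in LV, 0.76, against 0.11 in RV.

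Markers of other cell types are given beside these values, with 18.6% of all genes higher and 12.3% lower in LV, and 4.61% and 3.58% in RV. Of 10 smooth muscle genes, 5 rose in LV and 3 in RV and 0 fell. The mean of the list's log2 values, in which each gene weighs the same, was 8.20 to 8.50 on WT LV arrays and 8.72 to 8.83 on KO LV arrays. Tagln was higher by 1.68 in LV (limma adjusted p = 2.49e-05) and by 2.22 in RV (limma adjusted p = 2.14e-06). Myh11 (-0.26 in LV and -0.28 in RV) and Mylk (-0.09 and -0.19) were called in neither ventricle. The mean level of Myh11, 4.81, lay below the median of all values. Which cells the rises in this list came from was not tested. Of 18 endothelial genes, 7 rose and 3 fell in LV, and the list's mean was 8.92 to 9.17 in WT LV and 9.20 to 9.34 in KO LV. In RV 1 rose and 2 fell, at 9.02 to 9.31 in WT and 9.11 to 9.23 in KO. With the control term 1 smooth muscle gene, Tagln, and 0 endothelial genes were called in LV. In RV the smooth muscle count was 1 without WT LV replicate 1, WT RV replicate 3 or any KO RV array, and the endothelial count 1, lower, without WT RV replicate 3 or KO RV replicate 1 or 2.

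Of 12 mesenchymal genes, 4 rose and 2 fell in LV, with list means of 9.95 to 10.20 in WT LV and 10.23 to 10.46 in KO LV. Of 12 epicardial genes, 5 rose and 1 fell in LV and 3 rose and 1 fell in RV. In LV more genes of both lists rose than fell. The epicardial gene Krt19 rose by 1.04 in LV (limma adjusted p = 7.23e-05) and by 1.24 in RV (limma adjusted p = 2.72e-05). The mesenchymal gene Col1a1 rose by 1.32 in LV (limma adjusted p = 0.00109) and was not called in RV. The epicardial and fibroblast factor Tcf21 went the other way. It fell by 1.12 in LV (limma adjusted p = 3.54e-05) and by 1.09 in RV (limma adjusted p = 7.23e-05). Of 12 cardiomyocyte genes, 3 rose in LV, at list means of 13.04 to 13.10 in WT LV and 13.27 to 13.46 in KO LV. Macrophage genes rose in 10 of 11 in LV and 3 of 11 in RV, at 7.25 to 7.36 in WT LV and 7.93 to 8.08 in KO LV. In Schwann cell and crest genes 1 of 6 rose and 1 fell in each ventricle, and in erythroid genes 1 of 5 rose and 1 fell in LV and 3 fell in RV. Fetal liver genes fell in 2 of 7 in LV, at 6.62 to 8.05 in WT LV and 5.67 to 6.49 in KO LV. The counts of crest, erythroid and liver genes changed with single arrays: in LV the liver count was 0 without WT LV replicate 2 or KO LV replicate 2, 1 without WT LV replicate 1 or KO LV replicate 3 and 4 without WT RV replicate 1. The crest count was at most 1 without most single arrays, the erythroid LV count 1 without WT LV replicate 2 or KO LV replicate 1 or 3, and the erythroid RV count 1 without KO RV replicate 2 or 3. The macrophage RV count was 1 without KO RV replicate 2. With the control term the LV calls were 2 for macrophage genes, 1 for epicardial genes and 0 for mesenchymal, cardiomyocyte, crest, erythroid and liver genes, and Tcf21 in LV was at -0.83 (limma adjusted p = 0.0635). Without both WT LV replicate 2 and KO LV replicate 3, the macrophage LV count was 5. The part of these cell types in the values of the 5 genes was not tested.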

How the data were processed

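Biotin-labelled cRNA of pooled ventricles was read on 12 Affymetrix arrays, per the labels. The authors deposited log2 values made with RMA (background correction, quantile normalization, summary of a set's probes), per the submitters' processing notes; log2 follows from RMA and the range of 2.42 to 15.19. RMA forces the arrays to one distribution, so a shift common to most genes would not be seen. A genome build is not given in the sources used here. Per-sample columns left unused numbered 0. Of the probe sets 34958 had 1 gene symbol, 932 several and 9211 none. The brightest set stood for a gene, which gave 18194 genes with no filter on dim ones, and 18146 symbols matched RefSeq's gene table, used for gene order.

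Group means of all 12 arrays were fitted with limma (lmFit and eBayes) and Benjamini-Hochberg adjustment over all genes, at a threshold of 0.05. The procedure was tested on simulated data with independent noise for each gene and array. These held no difference in control level between arrays, so that test does not bear on the control split of the LV arrays. The 3 arrays per group limit the precision. The 5 genes, the lists and the tests were chosen with earlier results of these data known. Named were all probe sets of the 5 genes, all PDGF and inward rectifier genes, up to 2 called genes in each direction from other lists (a selection of these is printed), called neighbours and the 3 genes of nearest profile.

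Same-numbered arrays deviated together (correlation 0.11, 0.26 and 0.31) between genotypes in RV and between KO ventricles (0.21, 0.29 and 0.26), but not throughout between genotypes in LV (0.01, 0.14 and 0.42) or between WT ventricles (0.23, -0.01 and 0.15). The labels give no shared litter or day, so the pairing comes from these values. Other settings were leaving out dim genes, quantile normalization, median centring, intensity trend, array weights, a replicate block, the mean of a gene's sets, every set alone, the 2 compared groups alone, terms for the poly-A controls, stricter thresholds and leaving out arrays. The fits ran in limma 3.58.1 under R 4.3.3, and the figures in matplotlib 3.10.9 under Python 3.11.15.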

Additional observations from a re-analysis of the deposited data

How the results depend on the processing

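The LV count of 4 called pericyte genes ran from 3 to 4 when 1 array was left out, was 2 with a difference of at least 1 and 0 with the 2-level control term, and the replicate block changed no LV call. The RV count of 1 ran from 0 to 2 when 1 array was left out. It was 2 with array weights, the fixed replicate block (Rgs5 gained, limma adjusted p = 0.0176, against 0.0509 with the random block), the mean of the sets or the 2 compared groups alone. It was 0 with the control level as a term, an adjusted p under 0.01 or a difference of at least 1. The interaction count of 0 was 2 with array weights, and 0 to 2 when 1 array was left out. The WT ventricle count of 0 was 3 with array weights, and 0 to 3 when 1 array was left out. The KO ventricle count was 1 with the 2 groups alone (Abcc9, 0.41, limma adjusted p = 0.0363).

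Differences near 0 changed sign, and the cause was not tested. For Abcc9 in LV the value was -0.18 with the mean of the sets, -0.19 with the control level, -0.77 with the 2-level term and, when 1 array was left out, -0.022 (WT LV replicate 2) to 0.20. In RV Abcc9 was at -0.0018 with quantile normalization, -0.16 with array weights, -0.091 with the mean of the sets, -0.18 with the control level, -0.25 with the 2-level term, and -0.25 (WT RV replicate 3) to 0.23 when 1 array was left out. Its interaction was 0.093 with the mean of the sets, 0.017 with the control level, 0.52 with the 2-level term, 0.032 without both WT LV 2 and KO LV 3, and -0.33 to 0.15 when 1 array was left out, positive without WT LV replicate 2, WT RV replicate 1 or WT RV replicate 2. Pdgfrb reversed to -0.068 in LV with the 2-level term, and in RV ran from -0.26 to 0.065 when 1 array was left out, positive without WT RV replicate 2 or KO RV replicate 1. The Kcnj8 interaction was -0.05 with the 2-level term. Between WT ventricles Rgs5 was at 0.019 with the mean of the sets, 0.27 with the control level and 0.38 with the 2-level term, and ran from -0.37 to 0.29 when 1 array was left out, positive without WT LV replicate 3 or WT RV replicate 2. There Abcc9, Pdgfrb and Cspg4 were at -0.11, -0.12 and -0.01 with the 2-level term. Between KO ventricles Kcnj8 was at 0.097 with the control level, and ran from -0.17 to 0.028 (KO RV replicate 1) when 1 array was left out.

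Over all genes, 5617 were called in LV, against 2558 with the control level, 2738 without both WT LV 2 and KO LV 3, and 197 with the 2-level term. In RV 1490 were called, against 2858 with array weights, 928 in the 2 groups alone, 803 with the control level, 967 with the 2-level term and 762 to 1813 when 1 array was left out. The interaction gave 4 calls, against 1364 with array weights and 1309 without WT RV replicate 3.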

Other observations

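The genes that lie next to the 5 pericyte genes were read as a description of their surroundings, since the strains differ along with the allele. Of the 10 measured neighbours of Rgs5, 5 on each side, 4 rose and 1 fell in each ventricle. Over all genes 18.6% rose and 12.3% fell in LV, and 4.61% and 3.58% in RV, shares to set beside each count here. The neighbours of Rgs5 that rose were 3110045C21Rik (2.40 in LV and 2.59 in RV), the kinetochore gene Nuf2 (0.54 in LV and 0.86 in RV), the sterol enzyme gene Hsd17b7 (1.44 and 1.10) and Uap1, of amino sugar synthesis (0.38 and 0.34), and Rgs4 fell. Around Kcnj8 2 rose and 2 fell in LV. The helicase gene Recql (1.05 and 0.80) and the ganglioside enzyme gene St8sia1 (1.65 and 0.90) rose in both ventricles, Golt1b fell (-0.94 and -0.64), and Ldhb fell in LV (-0.22). Around Abcc9, where Kcnj8 itself is a neighbour, 1 rose and 3 fell in LV. Around Pdgfrb 4 rose in LV and 0 fell. These were the macrophage receptor gene Csf1r (1.13 in LV and 0.43 in RV), Camk2a (0.80 and 0.55), Slc26a2 (0.74 in LV) and Tcof1 (0.48 in LV). Around Cspg4, Peak1 (0.56) and Ptpn9 (0.57) rose and Snupn (-0.29) fell in LV, and Rcn2 rose in RV (0.26).

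The genes of nearest profile were found among 11359 genes above the median level, by the root mean square difference of values centred on each gene's own mean over the 12 arrays. For Rgs5 they were the mitochondrial iron importer gene Slc25a37 (0.23), the prostaglandin D synthase gene Ptgds (0.28) and Angptl4 (0.29), where Rgs5 itself spread by 0.71 about its mean. For Kcnj8 they were Tmem37 (0.17), the succinate dehydrogenase gene Sdhc (0.18) and again Ptgds (0.19). For Abcc9 they were Itga1 (0.13), the cardiac calcium-store gene Hrc (0.13) and the lipase gene Lpl (0.15). For Pdgfrb they were the replication gene Cdc6 (0.11), Vsir (0.11) and the proteoglycan gene Bgn (0.11), and for Cspg4 Lmtk2 (0.05), Lrrc8a (0.06) and Ptgfrn (0.06). Among the 5 genes, the nearest pairs were Pdgfrb with Cspg4 (0.22), Abcc9 with Cspg4 (0.30) and Rgs5 with Kcnj8 (0.32), and the farthest was Rgs5 with Cspg4 (0.99). The measure is not scaled, so genes that vary little lie near each other. Pdgfrb, Abcc9 and Cspg4 spread by only 0.26, 0.31 and 0.34 about their own means. Kcnj8 spread by 0.54 and Rgs5 by 0.71, both well above the 0.32 between them.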
